A study of Mus musculus with 10 samples.

Results

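Binding of HEB and SMAD2/3 was examined at 10 mouse genes that encode subunits of the Polycomb repressive complexes: Ezh1, Ezh2, Eed, Suz12, Jarid2 and Mtf2 of Polycomb repressive complex 2 (PRC2), and Bmi1, Pcgf2, Cbx7 and Rnf2 of Polycomb repressive complex 1 (PRC1). A region was taken when the deposited lists named 1 of these genes for it, which they do when the region lies in the gene or within 1 kb of it. This gave 79 of the 78263 regions in the 6 lists. Regions that shared at least 1 bp across lists were joined into 23 sites, out of 40264 sites in all. In all, 9 of the genes had a site, and Ezh2 had none in any list. A site is called a promoter site where a region lay within 1 kb of the gene's 5′ end (10 sites) and an internal site otherwise (13 sites). The internal class includes 2 sites just past a 3′ end, of Ezh1 and of Bmi1. Of the 23 sites, 2, the promoters of Mtf2 and Pcgf2, were in all 6 lists.

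The lists come from chromatin immunoprecipitation with sequencing (ChIP-seq) in the CGR8 mouse embryonic stem cell (ESC) line and in cells differentiated from it, with 1 ChIP library in each of the 6 groups. ESC groups (SMAD2/3, HEB, and HEB with SB431542) were grown without feeders in serum and LIF, and the SB431542 group had 10 µM of this inhibitor of the activin and Nodal type I receptors for 24 hours. Endoderm groups (SMAD2/3 and HEB) had 100 ng/ml Activin A from day 2 in serum-free medium and were taken at day 4. The differentiating group with SB431542 (HEB only, labelled as endoderm) had 10 µM from day 2 for 48 hours, and the labels leave unclear how this was combined with Activin A. SMAD2/3 was not profiled with SB431542. All cells descend from 1 line, and the lists hold binding and no expression, so the labelled cell states could not be checked against marker levels. The lists held 4111 to 18981 regions and 933126 to 5051930 ChIP tags, and the depth of the whole libraries was not known here. With 1 library in a group no spread between samples can be measured. All differences below therefore compare single libraries, have no replicate check and carry no p-value. Intervals are 95% intervals for counting error only, and tags are not known to be independent molecules.

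PRC2 methylates a lysine of histone H3 and thereby marks genes for silencing. EZH1 and EZH2 are its alternative catalytic subunits, EED and SUZ12 are needed for its activity, and JARID2 and MTF2 are accessory subunits that help to bring it to CpG-rich DNA. PRC1 modifies histone H2A through the ubiquitin ligase RNF2 with a PCGF partner such as BMI1 or PCGF2, and CBX7 reads the mark that PRC2 leaves. In ESCs both complexes occupy the promoters of many developmental regulators. HEB, the product of Tcf12, belongs to the E proteins, transcription factors that recognise E-boxes (CANNTG), and SMAD2 and SMAD3 carry activin and Nodal signals to DNA.

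The promoters of 4 of the genes are shown because they span the range of the results: Mtf2 and Pcgf2 were listed for both factors in both cell states, Bmi1 for HEB but not for SMAD2/3, and Ezh2 for neither. Sequences are RefSeq promoter windows of build GRCm38.p6, from 250 bases before to 50 after the most upstream gene start, printed 5′ to 3′ on the gene's strand, with each E-box (CANNTG) in capitals. All 10 genes matched a window by symbol.
Mtf2, chr5:108065424-108065723, plus strand: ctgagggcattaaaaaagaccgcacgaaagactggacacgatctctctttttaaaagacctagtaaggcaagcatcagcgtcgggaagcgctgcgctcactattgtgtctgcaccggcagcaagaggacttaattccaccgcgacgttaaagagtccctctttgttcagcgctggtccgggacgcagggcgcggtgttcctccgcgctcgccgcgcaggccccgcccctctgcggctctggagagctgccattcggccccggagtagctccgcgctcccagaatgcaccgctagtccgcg
Pcgf2, chr11:97699599-97699898, minus strand: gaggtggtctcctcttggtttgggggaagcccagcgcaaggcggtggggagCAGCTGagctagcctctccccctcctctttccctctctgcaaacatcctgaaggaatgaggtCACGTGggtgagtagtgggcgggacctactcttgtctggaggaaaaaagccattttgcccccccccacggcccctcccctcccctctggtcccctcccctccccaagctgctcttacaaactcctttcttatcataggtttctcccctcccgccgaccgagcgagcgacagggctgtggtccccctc
Bmi1, chr2:18676768-18677067, plus strand: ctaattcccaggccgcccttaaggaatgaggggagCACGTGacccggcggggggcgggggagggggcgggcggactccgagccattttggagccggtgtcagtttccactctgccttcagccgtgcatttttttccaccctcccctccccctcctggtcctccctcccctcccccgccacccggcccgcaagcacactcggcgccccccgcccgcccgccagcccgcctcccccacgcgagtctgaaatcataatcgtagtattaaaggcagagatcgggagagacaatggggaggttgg
Ezh2, chr6:47594981-47595280, minus strand: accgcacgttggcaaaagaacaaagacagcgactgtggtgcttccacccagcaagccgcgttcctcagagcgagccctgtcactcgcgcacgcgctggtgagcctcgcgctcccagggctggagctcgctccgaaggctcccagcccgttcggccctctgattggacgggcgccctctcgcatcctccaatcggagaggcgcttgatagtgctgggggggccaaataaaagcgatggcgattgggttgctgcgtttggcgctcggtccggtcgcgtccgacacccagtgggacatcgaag

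The Mtf2 and Ezh2 windows held no E-box, the Bmi1 window held 1 (CACGTG) and the Pcgf2 window held 2 (CAGCTG and CACGTG). Over all 10 genes, 5 windows held at least 1 CANNTG (Ezh1, Eed, Bmi1, Pcgf2 and Cbx7), against 68.8% of 17492 promoter windows of the same length. CAGCTG was present in 2 of the 10 (Pcgf2 and Cbx7) and in 15.1% of all windows, and CAGGTG or its reverse complement CACCTG in 1 (Ezh1, 2 matches) and in 19.3%. These forms are also counted in CANNTG. The SMAD sequence CAGAC or its reverse complement GTCTG was present in 6 of the 10 (Eed, Mtf2, Bmi1, Pcgf2, Cbx7 and Rnf2) and in 48.8% of all windows, and the palindrome GTCTAGAC was in none of the 10 and in 0.212% of all windows. The windows were 54.7% to 72.7% G and C, and 9 of the 10 exceeded the median window (56.3%). These are matches of letters in windows of another genome build than the region lists (mm9), and they are not mapped sites.

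HEB lists named 6 to 8 of the 10 genes, and SMAD2/3 lists 3 in ESCs and 7 in endoderm. These counts moved when lists were cut by tag enrichment. With the 4111 regions of highest tag enrichment in each list, SMAD2/3 named 1 in endoderm and ESC+SB HEB named 2. The ESC SMAD2/3 list holds 4111 regions in all, so its count of 3 could not change. The share of all genes named in these shortened lists was not computed. The ESC SMAD2/3 list named 3 of the 10 genes (Mtf2, Pcgf2 and Cbx7), where it named 7.32% of 21900 protein-coding genes. The ESC HEB list named 7 (these 3 and Jarid2, Ezh1, Eed and Bmi1), with 24.1% of all genes named. ESC+SB HEB named the same 7 and Suz12, with 29.9% of all genes. Endoderm SMAD2/3 named 7 (Jarid2, Ezh1, Eed, Mtf2, Pcgf2, Cbx7 and Rnf2), with 23.1% of all genes, and Endoderm HEB named the 7 of ESC HEB, with 24.9%. Endoderm+SB HEB named 6 (Jarid2, Eed, Mtf2, Bmi1, Pcgf2 and Rnf2), with 23.0%. With the full lists, the share of the 10 genes was above that of all genes in every list. That difference was not tested, since the genes were chosen with results of these data known.

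**Figure D1:**
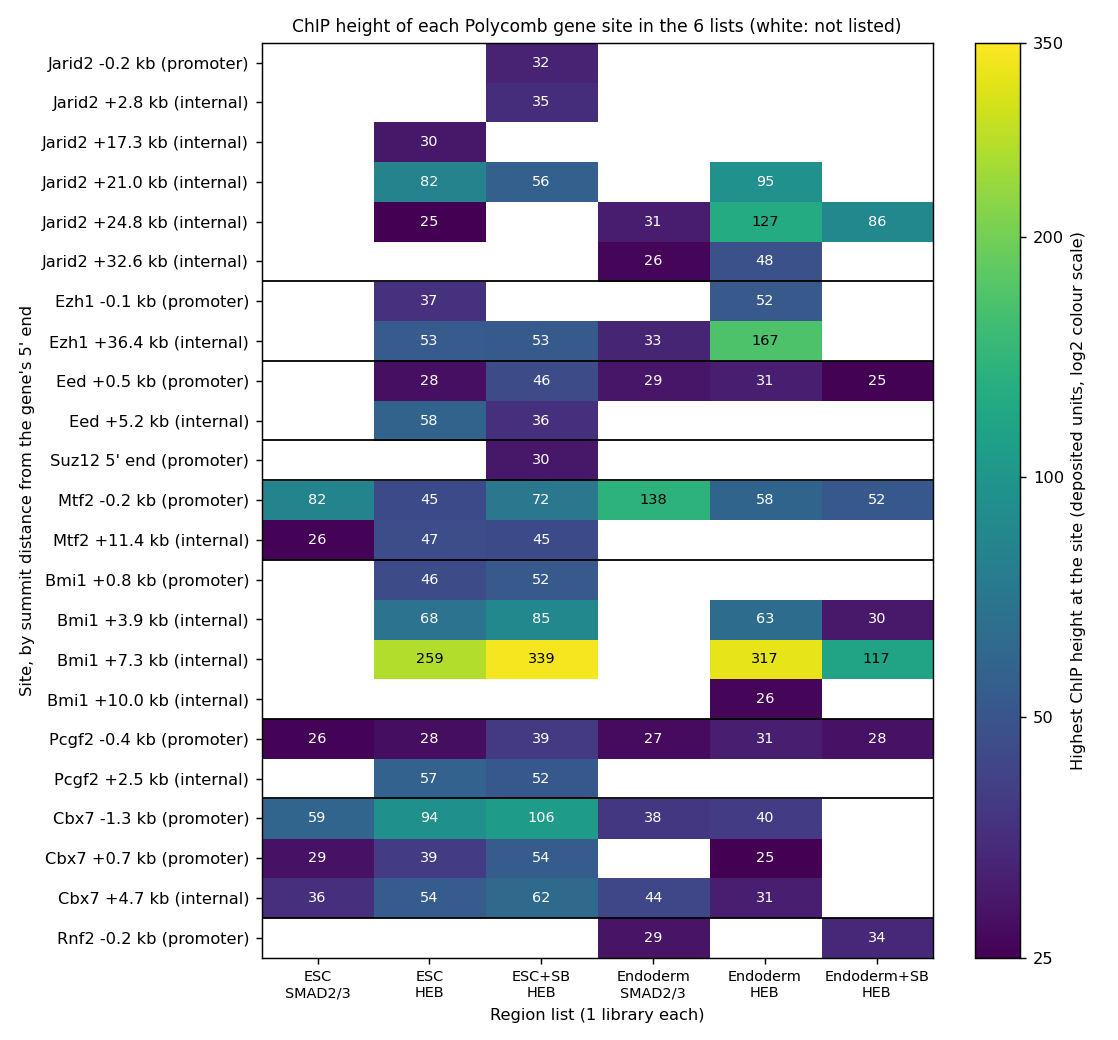
ChIP height (deposited units, colour on a log2 scale, value printed) of the highest region at each of the 23 sites (rows, by summit distance from the 5′ end of the gene) in each of the 6 lists (columns, 1 library each), with white where no region was listed. The Bmi1 +7.3 kb row holds the highest values in the HEB lists (117 to 339) and is white in both SMAD2/3 columns, while the Mtf2 and Pcgf2 promoter rows are filled in all 6 columns.

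Of the catalytic subunits of PRC2, Ezh1 had 2 sites and Ezh2 had none. Positions of regions are given in build mm9, as deposited. The Ezh1 promoter site was listed for HEB in ESCs (chromosome 11, 101087666 to 101087989, ChIP height 36.5, 118 ChIP and 20 input tags) and in endoderm (height 52.2, 188 and 17 tags). The deposited tag enrichment, ChIP over input tags, was 5.9 in ESCs (3.65 to 10.0) and 11.1 in endoderm (6.72 to 19.4), and these intervals overlap. Neither list with SB431542 and neither SMAD2/3 list held this promoter. The other Ezh1 site lay 779 to 901 bp past the 3′ end, inside the neighbouring gene Cntnap1, which the lists name as well. Its HEB height was 53.4 in ESCs, 52.7 with SB431542 and 167 in endoderm (chromosome 11, 101050934 to 101051600, 710 ChIP and 30 input tags), with SMAD2/3 at 33.0 in endoderm. Endoderm was the high value, in the upper 3.87% of its list by height. Because of its position this site cannot be given to Ezh1 rather than Cntnap1.

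Eed and Suz12, the other core subunits, carried low promoter regions. At the Eed 5′ end HEB heights were 27.97 in ESCs, 46.2 with SB431542, 31.1 in endoderm and 25.3 in differentiating cells with SB431542, and SMAD2/3 was listed in endoderm at 29.4. The ESC+SB value was the high one. The lowest height that a list holds was 28.0 in ESC+SB HEB and 25.0 in each of the others, not far below the other Eed values. A second Eed site, 5.2 kb into the gene (chromosome 7, 97124040 to 97124537), was listed for HEB in ESCs alone of the untreated states, at a height of 57.9 and an enrichment of 16.4 (10.0 to 28.5). With SB431542 in ESCs it was 35.8 and 7.25 (4.53 to 12.2). The Suz12 5′ end was listed only in ESC+SB HEB (chromosome 11, 79806002 to 79806930, height 29.6, 220 ChIP and 58 input tags, enrichment 3.79). Its height ranked 15086 of 16769 in that list, Suz12 stood close to the lower limit of listing, and its absence from the other lists does not show absence of HEB.

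Jarid2 had 6 sites, the most of the 10 genes without adjustment for gene length, and its HEB sites in ESCs and endoderm overlapped only in part. A site at +21.0 kb was listed for HEB in ESCs (height 81.7, enrichment 18.8), with SB431542 in ESCs (56.4 and 10.8) and in endoderm (95.1 and 23.9), but not in differentiating cells with SB431542. A site at +24.8 kb stood at the lower limit in ESCs, where its height of 25.0 ranked 17209 of 17222, and was high in endoderm at 127 (chromosome 13, 44850568 to 44851436, 632 ChIP and 29 input tags). In differentiating cells with SB431542 it was 85.6 (667 and 16 tags), the only Jarid2 region of that list. SMAD2/3 was listed there in endoderm at 31.0, and also at +32.6 kb (26.0), where HEB was 47.9 in endoderm. Jarid2 had no SMAD2/3 region in ESCs. Its 5′ end (height 32.0) and a site at +2.8 kb (35.2) were listed only in ESC+SB HEB, and a site at +17.3 kb (29.7) only in ESC HEB. The ESC height at +24.8 kb was below the lowest height that the ESC+SB HEB list holds, so a region of that height could not have been listed with SB431542.

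Mtf2 carried the highest SMAD2/3 regions among these genes. At its promoter (chromosome 5, 108494420 to 108494931 in Endoderm SMAD2/3) SMAD2/3 had a height of 82.3 in ESCs (271 ChIP and 34 input tags) and 138 in endoderm (431 and 29 tags), in the upper 7.1% and 3.02% of the lists. HEB heights there were 45.1 in ESCs, 71.5 with SB431542, 58.5 in endoderm and 51.8 in differentiating cells with SB431542. The summits of all 6 regions fell at -173 to -150 bp from the 5′ end, and every region spanned the whole printed promoter window if the gene starts of the 2 builds coincide. Enrichment ranged from 6.56 (4.56 to 9.71) in ESC HEB to 14.9 (10.2 to 22.5) in Endoderm SMAD2/3. An internal Mtf2 site at +11.4 kb was listed in ESCs alone, for SMAD2/3 (25.8), HEB (46.8) and HEB with SB431542 (45.3).

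**Figure D2:**
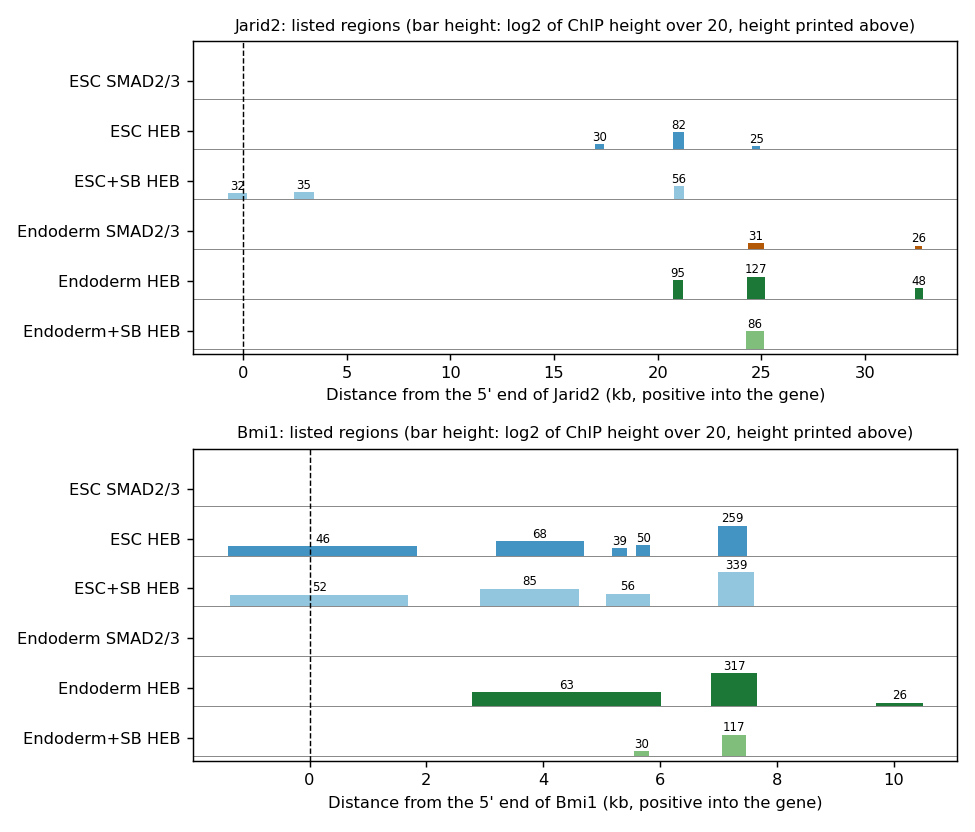
Regions listed at Jarid2 (upper panel) and Bmi1 (lower panel) against distance from the gene's 5′ end (dashed line, kb), with 1 row for each list; bar width is the region's extent, bar height the log2 of its ChIP height over 20, and the ChIP height is printed above. The Jarid2 +24.8 kb region is at 25 in ESC HEB and 127 in Endoderm HEB, and the Bmi1 5′ end is covered only in the 2 ESC HEB rows.

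Among the PRC1 genes, Bmi1 held the highest HEB regions of the 10 and no SMAD2/3 region. Its site at +7.3 kb (chromosome 2, 18605641 to 18606124 in ESC HEB) had heights of 259 in ESCs, 339 with SB431542, 317 in endoderm and 117 in differentiating cells with SB431542. The tags were 747 ChIP and 16 input, 918 and 11, 994 and 24, and 295 and 11, in the same order. The last library was the low one, although the site still ranked in the upper 3.56% of that list by height, against 1.21%, 0.423% and 0.88% of the others. Summits lay between 7270 and 7282 bp from the 5′ end in all 4 lists. The deposited enrichments were 46.7 (28.6 to 82.1), 81.9 (46.4 to 168), 41.4 (27.7 to 65.0) and 26.8 (14.8 to 54.3), and the intervals of the untreated and treated libraries overlap in each cell state. In ESC+SB HEB the deposited value is not the plain quotient of the tags, because the authors' input value was raised to a floor, as at 6 of the 79 regions.

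Further HEB regions lay in and around Bmi1. A region over the 5′ end, also named for the neighbouring gene Commd3, was 3246 bp wide in ESC HEB (height 46.3, 833 ChIP and 53 input tags, in the widest 0.43% of the list) and 3045 bp wide with SB431542 (height 52.3, 953 and 55 tags). Neither list of differentiated cells held it. Regions from 2784 to 6011 bp into the gene formed 1 site across the 4 HEB lists, with highest heights of 68.1 in ESCs, 85.3 with SB431542, 63.3 in endoderm and 29.9 in differentiating cells with SB431542. In endoderm this was a single region 3227 bp wide, and in differentiating cells with SB431542 a single one of 258 bp. A last site, 82 bp past the 3′ end (height 26.2), was listed in Endoderm HEB alone.

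Pcgf2, which encodes an alternative partner to BMI1, had a low promoter site in every list. The highest heights were 25.7 (SMAD2/3) and 27.7 (HEB) in ESCs, 39.3 with SB431542, 27.1 (SMAD2/3) and 31.2 (HEB) in endoderm and 28.4 in differentiating cells with SB431542. The HEB regions formed 2 stretches in each list, with summits from -435 to -424 bp and from 426 to 569 bp, and in endoderm SMAD2/3 joined both in 1 region of 1908 bp. The authors' distances imply a further 5′ end inside the first stretch. An internal site at +2.5 kb was listed for HEB in ESCs without (57.2) and with (51.6) SB431542 and in no list of differentiated cells.

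Cbx7 had 3 sites, all listed for both factors in ESCs and none in differentiating cells with SB431542. The site at -1.3 kb had a SMAD2/3 height of 59.1 in ESCs and 38.3 in endoderm and a HEB height of 94.1 in ESCs, 106 with SB431542 and 39.8 in endoderm. The HEB regions of untreated ESCs and endoderm there began at -1078 and -1120 bp from the 5′ end, just outside the 1 kb limit, and are listed with no gene. The regions just inside it started 941 bp (ESC SMAD2/3), 781 bp (ESC+SB HEB) and 706 bp (Endoderm SMAD2/3) away. At +0.7 kb the values were 28.6 (SMAD2/3), 39.5 (HEB) and 53.6 (HEB with SB431542) in ESCs and 25.0 (HEB) in endoderm, the last ranking 18959 of 18981. At +4.7 kb they were 35.7, 54.1 and 62.2 in ESCs and 44.0 (SMAD2/3) and 31.2 (HEB) in endoderm. Heights of HEB were lower in endoderm than in ESCs at all 3 sites, while tag enrichment was lower only at -1.3 kb (15.8 and 12.1) and higher at +0.7 kb (4.39 and 5.93) and +4.7 kb (7.08 and 9.21). Rnf2, the catalytic subunit of PRC1, had 1 promoter site, with SMAD2/3 in endoderm (28.8) and HEB in differentiating cells with SB431542 (33.9, chromosome 1, 153347976 to 153348409, 127 ChIP and 17 input tags).

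**Figure D3:**
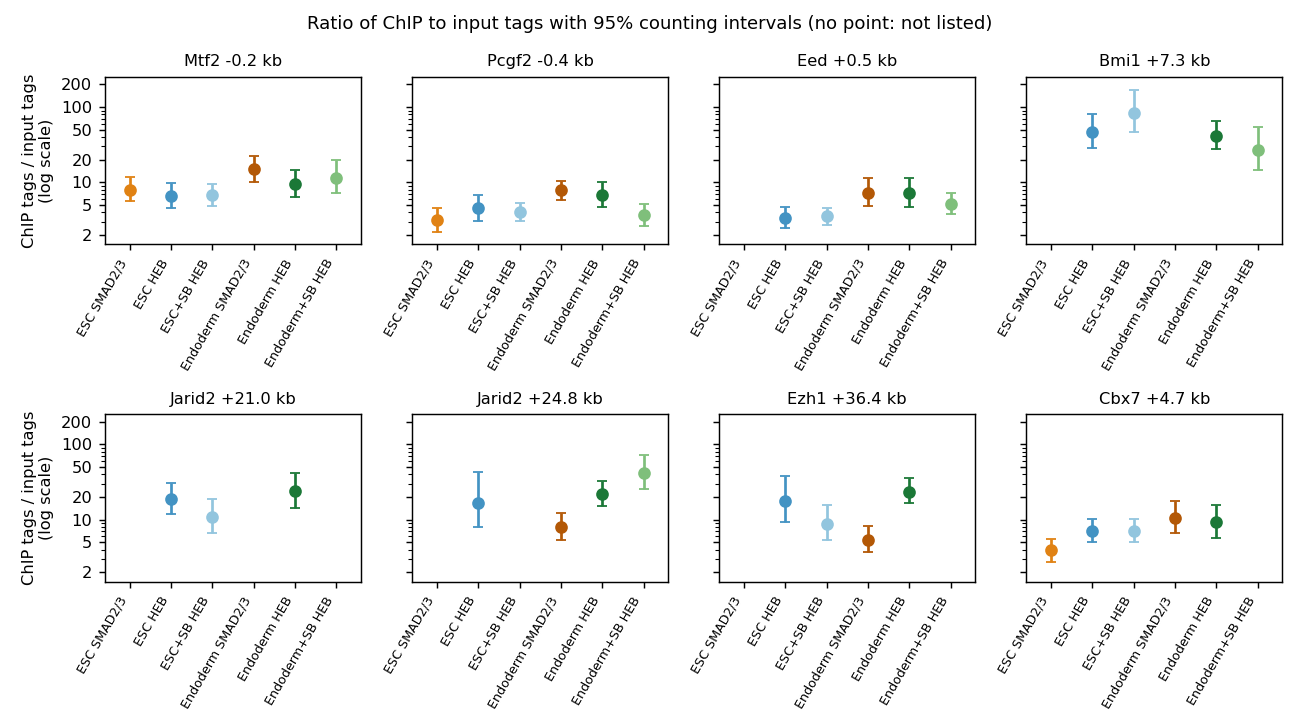
Ratio of ChIP to input tags (log scale) at 8 sites, taking the highest region of each list, with bars for the 95% counting interval and no point where a list holds no region. Ratios at Bmi1 +7.3 kb lie above 20 in all 4 HEB lists, while those of the Mtf2, Pcgf2 and Eed promoters lie below 20 in every list.

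Promoter regions of the genes were lower than internal ones for HEB. Their median enrichment was 4.47 against 14.8 for internal regions in ESC HEB, 5.13 against 8.76 with SB431542, 7.01 against 16.4 in endoderm and 7.47 against 26.8 in differentiating cells with SB431542. Over all regions with a listed gene the same medians were 6.10 and 8.67, 4.69 and 6.94, 7.54 and 13.2, and 6.54 and 11.1. The internal medians of the genes rest on 13, 11, 8 and 3 regions in the same order, several of them at Bmi1. The last of these medians (26.8) is the value of Bmi1 +7.3 kb itself. For SMAD2/3 the 2 classes were closer, at 5.30 and 6.02 in ESCs and 7.27 and 6.67 in endoderm, against 5.05 and 7.15 and 7.14 and 10.8 over all such regions. Promoter regions made up 4 of 6 regions in ESC SMAD2/3 (66.7%, exact interval 22.3 to 95.7, against 29.3% of all regions with a listed gene). They were 8 of 21 in ESC HEB (38.1%, 18.1 to 61.6, against 32.1%) and 10 of 21 in ESC+SB HEB (47.6%, 25.7 to 70.2, against 46.2%). In endoderm they were 5 of 9 for SMAD2/3 (55.6%, 21.2 to 86.3, against 49.4%) and 6 of 14 for HEB (42.9%, 17.7 to 71.1, against 28.6%), and in differentiating cells with SB431542 5 of 8 (62.5%, 24.5 to 91.5, against 55.0%). Every interval included the share of all regions. The intervals treat regions as independent, although several belong to 1 gene or 1 site, such as 5 of Bmi1 in ESC HEB. With these few regions they therefore do not decide whether the shares differ.

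The first comparison asked which sites HEB and SMAD2/3 share in the same cells. For each comparison the regions of only the 2 lists compared were joined, so a broad site can count as several, and Cbx7 -1.3 kb is left out where neither region names the gene. In ESCs, 4 of 8 promoter sites of the genes were in both lists, where 14.2% of promoter sites of all listed genes were, and 2 of 13 internal sites, where 18.7% were. The shared ones were those of Mtf2, Pcgf2 and Cbx7. No site was listed for SMAD2/3 without HEB, and Bmi1, Jarid2, Eed and Ezh1 had HEB alone. In endoderm 4 of 7 promoter sites were in both lists (32.8% of all), at Mtf2, Pcgf2, Eed and Cbx7, and 4 of 8 internal sites (26.9% of all), at Jarid2 (+24.8 and +32.6 kb), Cbx7 and the site past Ezh1. Rnf2 had SMAD2/3 without HEB there, and Bmi1, the Ezh1 promoter, Cbx7 +0.7 kb and Jarid2 +21.0 kb had HEB alone. The number of genes with both factors at a site was 3 in ESCs (5.8% of all protein-coding genes) and 6 in endoderm (13.1%). The order turned with shorter lists: the counts were 2 and 0 with the upper 50% of each list by tag enrichment, and 1 and 0 with lists of equal length. These counts alone do not show whether binding differed between the states.

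HEB was then compared between ESCs and endoderm. Both lists held 6 of 8 promoter sites (35.6% of those of all listed genes) and 6 of 12 internal sites (14.1%). All 7 genes named in either list had at least 1 shared site. Sites of ESCs alone were the Bmi1 5′ end, a Cbx7 region over the 5′ end, and internal sites of Eed, Jarid2 (+17.3 kb), Mtf2 and Pcgf2. Those of endoderm alone were Jarid2 +32.6 kb and the site past Bmi1. Heights at shared sites were compared on the log2 scale after subtracting the median difference of all shared sites, which was -0.04 over 5378 sites. Of the 12 sites of the genes 2 were at least 2-fold higher in endoderm, Jarid2 +24.8 kb (2.38) and the site past Ezh1 (1.68), against 12.3% of all shared sites, and 0 were at least 2-fold lower, against 13.1%. Cbx7 -1.3 kb is not among these 12, because neither HEB region there names the gene. Its difference was -1.20, so with it 1 site was at least 2-fold lower. By tag enrichment it was -0.66. By tag enrichment these 2 differences were 0.29 and 0.15, under the 2-fold line. At Jarid2 +24.8 kb the enrichment intervals of ESCs (7.93 to 42.8) and endoderm (15.0 to 32.8) overlap, while the region was 399 bp wide in ESCs and 868 bp in endoderm.

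SMAD2/3 was also compared between ESCs and endoderm. Both lists held 3 of 6 promoter sites (12.7% of those of all listed genes), at Mtf2, Pcgf2 and Cbx7, and 1 of 5 internal sites (10.9%), at Cbx7 +4.7 kb. The promoters of Eed and Rnf2 and the internal sites of Jarid2 and Ezh1 were listed in endoderm alone, and Cbx7 +0.7 kb and Mtf2 +11.4 kb in ESCs alone. All shared sites had a median log2 difference of 0.36, endoderm being higher, over 1555 sites. Relative to it the 4 shared sites of the genes lay between -0.99 at Cbx7 -1.3 kb and 0.38 at the Mtf2 promoter. Of them 0 were at least 2-fold higher, against 13.1% of all shared sites, and 0 at least 2-fold lower, against 9.9%. By tag enrichment the 4 sites lay between -0.84 (Cbx7 -1.3 kb) and 0.75 (Cbx7 +4.7 kb), again within the 2-fold lines. The sign changed at Cbx7 +4.7 kb (-0.06 by height) and at the Pcgf2 promoter (-0.29 by height and 0.62 by tag enrichment).

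In ESCs, SB431542 left most HEB sites of these genes in the list. Both lists held 8 of 11 promoter sites (52.3% of those of all listed genes) and 9 of 12 internal sites (62.4%). Listed without SB431542 alone were the Ezh1 promoter and Jarid2 at +17.3 and +24.8 kb, and with it alone the promoters of Jarid2 and Suz12 and Jarid2 +2.8 kb. The median log2 difference of all 12550 shared sites was 0.10. Relative to this, all 8 promoter sites of the genes had positive differences, from 0.08 to 0.63 with a median of 0.35. Of 2661 promoter sites of all listed genes 73.9% were positive, with a median of 0.20. The 8 come from Bmi1, Cbx7, Eed, Mtf2 and Pcgf2 only, with neighbouring stretches of Cbx7 and of Pcgf2 counted as separate sites. They are therefore not independent. By tag enrichment 7 of the 8 were positive (61.6% of all), and Cbx7 -1.3 kb was at -0.65. By height the largest were the Eed (0.63) and Mtf2 (0.57) promoters. The ESC HEB heights of the Eed promoter (27.97) and both Pcgf2 stretches (27.7 and 26.5) lay below the lowest height of the ESC+SB HEB list (28.0). Being in both lists therefore required a higher raw height with SB431542 there, so their positive signs carry little information. Internal sites were positive at 4 of 9, with a median of -0.12 against -0.06 over all, and the lowest were Eed +5.2 kb (-0.79) and Jarid2 +21.0 kb (-0.63). Of the 17 sites 0 were at least 2-fold higher (0.143% of all) and 0 at least 2-fold lower (2.98%). By tag enrichment the Bmi1 +7.3 kb site passed the 2-fold line (1.05 relative to the median, against 0.29 by height).

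In differentiating cells fewer sites were listed with SB431542 than without. Both lists held 4 of 7 promoter sites (33.7% of those of all listed genes), at Mtf2, Eed and Pcgf2 (counted as 2). They also held 3 of 8 internal sites (15.7%), at Bmi1 (+7.3 and +3.9 kb) and Jarid2 +24.8 kb. The site Bmi1 +3.9 kb is named after its highest summit over all lists, and in these 2 lists its summits lay at 5701 and 5700 bp. The promoters of Ezh1 and Cbx7 and the internal sites of Cbx7, Jarid2 (+21.0 and +32.6 kb), Ezh1 and the one past Bmi1 were listed without SB431542 alone, and Rnf2 with it alone. Endoderm HEB held 18981 regions and Endoderm+SB HEB 10147. The median log2 difference of all 4745 shared sites was -0.12. Relative to it the 3 internal sites of the genes were at -0.45 (Jarid2 +24.8 kb), -0.97 (Bmi1 +3.9 kb) and -1.32 (Bmi1 +7.3 kb), with a median of -0.97 against -0.14 over 1358 internal sites of all listed genes. The 4 promoter sites lay between -0.18 and 0.11 by height and between -0.73 and 0.77 by tag enrichment. Bmi1 +7.3 kb was the 1 site of 7 at least 2-fold lower, against 15.5% of all shared sites, and 0 were at least 2-fold higher, against 6.87%. By tag enrichment Bmi1 +7.3 kb was at -0.48, within the 2-fold lines, and Jarid2 +24.8 kb was at 1.08, above them and with the opposite sign to its height.

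**Figure D4:**
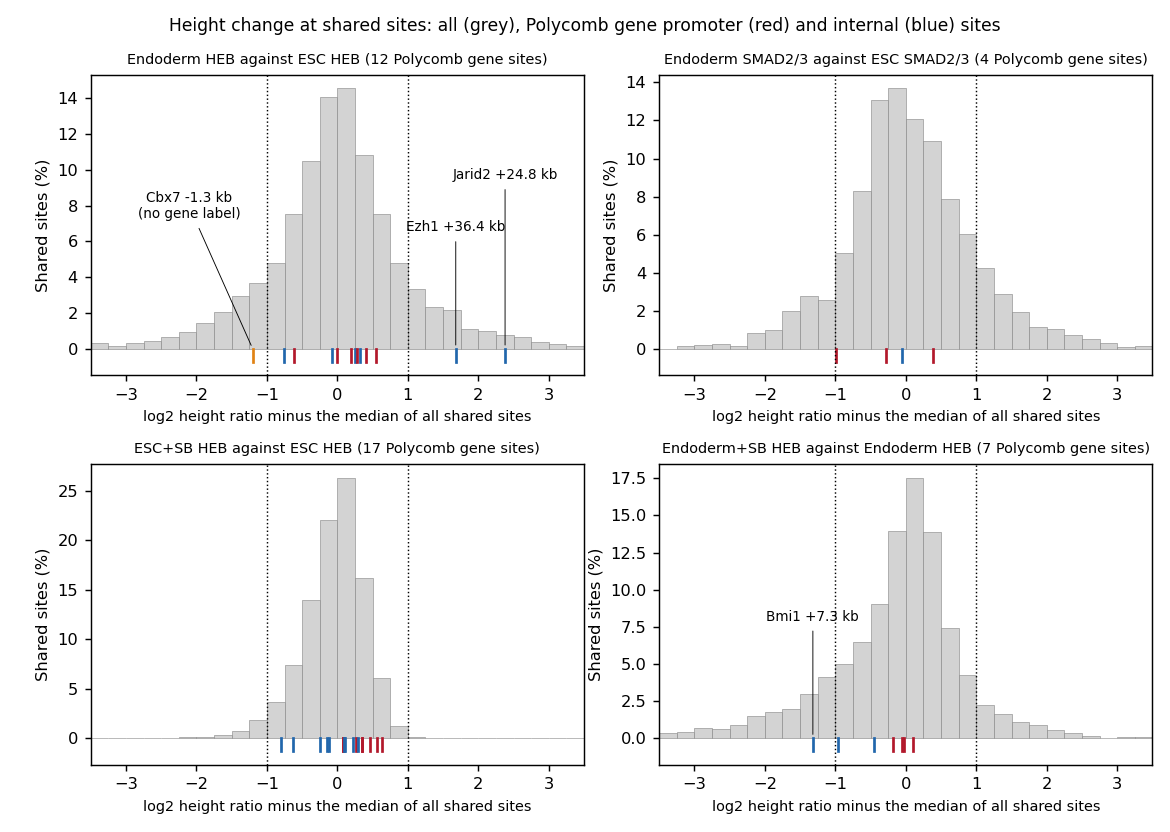
Log2 ratio of ChIP heights at sites listed in both libraries of 4 comparisons, minus the median of all shared sites (x axis), with the percentage of all shared sites in grey and a tick for each Polycomb gene site below (red promoter, blue internal); dotted lines mark 2-fold. The orange tick is Cbx7 -1.3 kb, at which neither region names the gene. Named sites lie beyond these lines: Jarid2 +24.8 kb and Ezh1 +36.4 kb on the higher side and Cbx7 -1.3 kb on the lower side in endoderm against ESC HEB, and Bmi1 +7.3 kb on the lower side with SB431542 in differentiating cells.

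Of a further 30 Polycomb genes, listed for context, the ESC lists named 3 (ESC SMAD2/3), 19 (ESC HEB) and 19 (ESC+SB HEB). Of all protein-coding genes these lists named 7.32%, 24.1% and 29.9%. The other lists named 11 (Endoderm SMAD2/3), 14 (Endoderm HEB) and 15 (Endoderm+SB HEB), with 23.1%, 24.9% and 23.0% of all protein-coding genes. The 3 with SMAD2/3 in ESCs were Epop, which encodes a PRC2 accessory factor of ESCs, Auts2, which encodes a partner of non-canonical PRC1, and Asxl1, which encodes a subunit of the Polycomb deubiquitinase. Auts2 and Asxl1 were named in all 6 lists, Auts2 with 2 regions in ESC SMAD2/3, 11 in ESC HEB and 33 in Endoderm HEB. Regions anywhere in a gene count, and these numbers were not adjusted for gene length. Phc1, Phc3 and Scmh1, PRC1 genes picked out after their values were seen, were named for HEB in ESCs without and with SB431542 and in no list of differentiated cells. The share of all protein-coding genes with that pattern was not computed, so it cannot be called particular to PRC1 genes. Pcgf1, Cbx2, Scml2, L3mbtl2 and Yy1 were in none of the 6 lists. In ESC SMAD2/3 a promoter region was present at 1 of the 30, where 2.76% of all protein-coding genes had one, and in Endoderm SMAD2/3 at 8, where 15.4% did. Of all protein-coding genes, 630 (2.88%) were named in all 6 lists as Mtf2 and Pcgf2 were, 374 (1.71%) in the 4 HEB lists alone as Bmi1 was, and 11607 (53.0%) in no list, as Ezh2.

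Some regions near the genes were listed with no gene, and these were looked at after the values were seen. With summits at -2243 to -2178 bp from the Jarid2 5′ end, HEB was at 25.1 in ESCs and 104 in endoderm, where SMAD2/3 was at 67.4 (chromosome 13, 44823749 to 44824433), higher than at either Jarid2 site inside the gene. A region with summits at -2350 to -2273 bp from the Cbx7 5′ end was listed for SMAD2/3 (29.4) and HEB (37.7) in ESCs, HEB with SB431542 (44.6) and SMAD2/3 in endoderm (49.2). Past Bmi1, summits from 13647 to 13658 bp were listed in the 4 HEB lists at heights of 58.4 (ESCs), 82.3 (with SB431542), 50.9 (endoderm) and 25.1 (differentiating cells with SB431542). The low value was again that of the differentiating cells with SB431542.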

How the data were processed

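The 6 deposited lists hold enriched regions, 1 list for each ChIP library, and the 4 input libraries enter only through their background columns. Per the file headers, each region has whole-number counts of ChIP and background tags, a signal (the height of the ChIP pileup) and a ratio of tags (tag enrichment), all made by the authors. The ratio was the quotient of the deposited counts (within 0.1%) in 73 of 79 regions, with a floor under the input in 6. CASAVA 1.8.2 and build mm9 are named per the submitters' processing notes, while no aligner, peak caller or annotation is named in the sources used. Heights have no stated scaling. The column headed −log10 q-value holds values too large for that name and was not used. Coordinates are printed as deposited.

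Sites were built by overlap of at least 1 bp in Python 3.11.15 (pandas 2.3.3, scipy 1.17.1), and the code was tested on simulated lists and against bedtools 2.31.1. Distances from the 5′ end come from the deposited distances and RefSeq strands. Enrichment intervals are exact binomial (Clopper-Pearson) intervals of the tags, at 95%. Gene shares use GRCm38.p6 protein-coding symbols, to which 10305 of 10730 listed names (96.0%) matched. All 10 genes are described. The genes, lists and tests were chosen with earlier results of these data known. The height comparison of shared sites was added after the files were seen. Alternatives were the upper 50% of each list, lists of equal length, a 50% overlap and a 500 bp promoter limit. Numbers of samples per group (1) allowed no test across samples.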

Additional observations from a re-analysis of the deposited data

Results flagged for a closer look

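Height relative to the median shared site was compared with and without SB431542 at the 5 sites listed in all 4 HEB lists. At 4 of them it moved in opposite directions in ESCs and in differentiating cells. At the fifth, the Pcgf2 promoter, this depended on the stretch compared. Each group had 1 library, and the difference was not tested. The share of all sites with such opposite directions was not computed, so the count cannot be called particular to these genes. The log2 differences were 0.29 in ESCs and -1.32 in differentiating cells at Bmi1 +7.3 kb. At Bmi1 +3.9 kb ESCs had 2 stretches, at 0.23 (summit at 3899 bp in ESC+SB HEB) and 0.09 (summit at 5701 bp). The value in differentiating cells there, -0.97, compares regions with summits at 5701 and 5700 bp, so only the second ESC stretch matches its position. The differences were 0.63 and -0.18 at the Eed promoter and 0.57 and -0.058 at the Mtf2 promoter. The last value is close to 0, and by tag enrichment the Mtf2 promoter was at 0.28 and 0.42, in the same direction. Bmi1 +7.3 kb (1.05 and -0.48) and the Eed promoter (0.30 and -0.32) kept opposite directions by tag enrichment. At Bmi1 +3.9 kb the ESC stretch at 3899 bp was at 0.53 and that at 5701 bp at -0.10, against -0.30 in differentiating cells. By tag enrichment the direction at the matching position was therefore the same. At the Pcgf2 promoter the upstream stretch had opposite signs (0.47 and -0.02), with the last value close to 0. The other stretch was at 0.35 and 0.11, in the same direction. In ESC HEB the heights of the Eed promoter (27.97) and both Pcgf2 stretches (27.7 and 26.5) lay below the lowest height of ESC+SB HEB (28.0). Being in both ESC lists therefore required a higher raw height with SB431542 at these places.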

How the results depend on the processing

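Counts of genes depended on how much of each list was used. The share of all genes in the shortened lists was not computed, so it cannot be told whether the counts below exceed it. With the upper 50% of each list by tag enrichment, the genes named fell to 2 in Endoderm SMAD2/3, 3 in Endoderm HEB and 3 in Endoderm+SB HEB. Genes with overlapping regions were then 0 for the factors in endoderm, 3 for HEB between states, 1 for SMAD2/3 between states and 2 for HEB with and without SB431542 in differentiating cells. With the 4111 regions of highest tag enrichment in every list, the genes named were 4 in ESC HEB, 2 in ESC+SB HEB, 1 in Endoderm SMAD2/3, 3 in Endoderm HEB and 3 in Endoderm+SB HEB. Overlaps were then 1 and 0 for the factors in ESCs and endoderm, 3 and 1 for HEB and SMAD2/3 between states, and 2 and 2 with SB431542 in ESCs and differentiating cells. The other 6 counts under these 2 settings, all 6 with a 50% overlap and all 6 with a 500 bp promoter limit stayed within 1.5 times. Among them, the count of ESC SMAD2/3 with 4111 regions could not change, because that list holds only 4111. Tag enrichment in place of height, chosen after seeing the data, moved 9 of 48 values, either a site across the 2-fold line or a count of such sites, as given with each comparison. Counting Cbx7 -1.3 kb, also chosen after seeing the data, gave 1 site in place of 0 at least 2-fold lower in endoderm HEB. No paired analysis was possible because each group has 1 library. Regions under the lowest listed height (25.0, or 28.0 in ESC+SB HEB) cannot be listed, which limits every absence given here.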
